A study of Rattus norvegicus with 44 samples.

Results

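H4-II-E-C3 cells, a hepatocyte-like line from a rat hepatoma, were exposed to 140 µM nickel chloride for 24 h in serum-free medium and set against unexposed control flasks of the same line. The nickel 140 µM group was 4 arrays and the control group was 8 arrays, of 44 arrays in all. Nickel 140 µM was the intermediate of 3 nickel concentrations, 40, 140 and 400 µM, which the study took from viability assays. The lowest was set at no observed cell death and the higher ones at increasing levels of cell death. The other arrays held the same cells exposed to sodium dichromate (chromium 0.275, 1 or 10 µM) or to cadmium chloride (cadmium at 0.2 µM, 0.55 µM or 1.2 µM). Each condition had 4 biological replicates, and each replicate number had 2 control arrays, named Control 1 and Control 2 in the labels. Nothing used here says whether these 2 arrays were separate flasks, so they were averaged within a replicate in the tests. All arrays came from 1 cell line, and p-values measure the spread between replicates of that line. The values are log2 signals of probe sets on an Affymetrix rat expression array, and a difference of 1 on this scale is a 2-fold difference.

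The 4 nickel 140 µM arrays and the 8 control arrays were not taken from the labels alone. They were chosen by an order of the sample titles, in which the 4 titles of repeated arrays stand last and each title goes to the array in the same place. This order gave the condition means of the study's supplementary change table for its 992 probe sets to within 7.5e-06 on the log2 scale. With the labels as given, the same means were off by a median of 0.164 and by up to 4.32. The order moved 22 of 44 arrays to another condition. In replicates 1 and 2, all nickel 140 µM and control arrays kept the condition of their label. In replicate 3 the nickel 140 µM array carried the label of nickel 40 µM, and in replicate 4 it carried that of cadmium 0.2 µM and was a repeated array. The Control 1 arrays of replicates 3 and 4 carried labels of cadmium 1.2 µM, and the Control 2 arrays were labelled as controls. Because the 992 probe sets were used to check the order, their values over 4 replicates are given as a description, and their p-values come from replicates 1 and 2 alone. Probe sets outside the change table were not used in that check, and their p-values come from all 4 replicates. With the labels as given in all 4 replicates, 0 probe sets were called in limma between nickel 140 µM and control, and 1461 had an unadjusted p under 0.05.

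Nickel ions compete with iron at the active site of oxygen-dependent enzymes that also need 2-oxoglutarate. These enzymes include the prolyl hydroxylases that mark hypoxia-inducible factor HIF-1α for degradation when oxygen is present, and nickel is a classical chemical inducer of hypoxia genes at normal oxygen. HIF-1 binds a short core sequence in its target genes and raises glucose transporters, glycolytic enzymes and genes of mitochondrial turnover. In liver cells nickel can also induce heme oxygenase, glutathione synthesis and metallothioneins, which are common responses to metals and oxidative stress.

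The median squared correlation with the other arrays of the same condition was 0.9509 for the nickel 140 µM array of replicate 4, 0.9656 to 0.9683 for the other 3 nickel arrays, and 0.9635 to 0.9762 for the control arrays. Of 9 tested hepatocyte markers, none passed the test in either direction. Albumin averaged 14.52 in nickel 140 µM and had a median of 14.57 in control. Endothelial markers and bile duct markers were among the tested probe sets for 0 of 7 and 0 of 5 genes on the array, and stellate cell and leukocyte markers for 2 of 10 and 2 of 8.

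Nickel 140 µM changed a small share of the transcriptome, and most of the changes were increases. With all 4 replicates in limma, 504 probe sets had an adjusted p under 0.05, of which 387 were higher (2.41% of those tested) and 117 were lower (0.73%). Outside the change table, 338 of 15131 probe sets were called, with 256 higher and 82 lower. In replicates 1 and 2 alone, 172 were higher (1.07%) and 62 were lower (0.387%). A total of 160 probe sets were called in both fits, and all of them had the same sign in both. The arrays of replicates 1 and 2 are part of both fits, so the shared sign is no independent check. Stricter thresholds were an adjusted p of at most 0.001 with at least a 1.8-fold difference. They called 18 probe sets over 4 replicates, all higher (0.112%) and all in the change table. The study drew that table from the same arrays with like thresholds, so this membership is no independent check. The count of 18 was 3 without the replicate block and 0 with no moderation. It was 0 without replicate 1, replicate 2 or replicate 3, and 21 without replicate 4. It was 0 in replicates 1 and 2 alone in limma, where 2684 had an unadjusted p under 0.05. The changes were modest, with a median log2 change of 0.396 among the probe sets called higher and a largest one of 1.328. Among those called lower, the median was -0.394 and the largest fall was -0.782. The count of calls depended on the replicate block: without it, 96 probe sets were called. It lay between 74 and 220 with 1 replicate left out.

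Genes were counted with 1 probe set each, the one of highest mean signal. Of 9141 genes tested, 244 were higher (2.67%) and 76 were lower (0.831%) over 4 replicates. In replicates 1 and 2, 107 were higher (1.17%) and 50 were lower (0.547%). Outside the change table, 8566 genes were tested over 4 replicates, of which 162 were higher (1.89%) and 54 were lower (0.63%). The 4 nickel arrays lay above all 8 control arrays in 296 genes (3.24%) and below them all in 120 genes (1.31%). The counts of gene lists that follow are read against these shares, and log2 changes with no replicates named are over all 4.

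Genes of glucose uptake and glycolysis rose together. In replicates 1 and 2, 15 of 21 tested members were higher and 0 were lower in limma. Of the 11 members outside the change table, 5 were higher over 4 replicates and 0 were lower. The list had a median log2 change of 0.59, with members between -0.11 and 1.12, against a median of 0.02 over all genes. In 12 of 21 members the 4 nickel arrays lay above all 8 control arrays. The members called in replicates 1 and 2 ran from the glucose transporter through the enzymes of glycolysis to lactate dehydrogenase.

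Slc2a1, the glucose transporter GLUT1, had log2 signals of 10.11, 10.06, 9.79 and 9.85 in the nickel arrays of replicates 1 to 4, and 8.52 to 9.43 with a median of 8.82 in the control arrays. All 4 nickel arrays were above all 8 control arrays. Its log2 change was 1.08 over 4 replicates, a 2.11-fold rise, and 1.24 ± 0.08 (SE) in replicates 1 and 2 (adjusted p = 0.0018). Gpi, glucose-6-phosphate isomerase, is outside the change table and had 11.73, 11.64, 11.52 and 11.80 in the nickel arrays, against 10.72 to 11.28 with a median of 10.90 in control. The groups did not overlap, and the log2 change was 0.73 ± 0.09 (SE, adjusted p = 6.1e-04 in limma over 4 replicates). Pfkl, liver phosphofructokinase, rose by 1.17 on the log2 scale in replicates 1 and 2 (adjusted p = 0.0048), but it was 0.27 in replicates 3 and 4 and did not pass over 4 replicates (adjusted p = 0.0981).

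The aldolases Aldoa and Aldoc, which split fructose bisphosphate, had log2 changes of 0.59 and 0.88 (adjusted p = 0.0124 and 0.0208 over 4 replicates). For Aldoa the differences from control within replicates 1 to 4 were 0.79, 0.74, 0.75 and 0.08, smallest in replicate 4. Tpi1, triosephosphate isomerase, and Pgk1, phosphoglycerate kinase, rose by 0.83 and 0.86 (adjusted p = 0.0025 and 0.0043 in replicates 1 and 2). Pgam1, phosphoglycerate mutase, rose by 0.42 (adjusted p = 0.0029 over 4 replicates). Eno1, the main enolase of most cells, had 13.16, 13.05, 13.13 and 13.31 in the nickel arrays, and 12.51 to 12.87 with a median of 12.61 in control. Its 4 within-replicate differences of 0.55, 0.54, 0.56 and 0.51 were the most even among these enzymes, and its log2 change was 0.54 ± 0.06 (adjusted p = 6.1e-04 over 4 replicates).

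Ldha, the lactate dehydrogenase subunit that favours lactate formation, had 12.89, 12.80, 12.72 and 12.99 in nickel 140 µM, and 11.76 to 12.48 with a median of 11.88 in control, with no overlap. It rose 1.83-fold over 4 replicates and by 0.98 ± 0.07 in replicates 1 and 2 (adjusted p = 0.0020). Pdk1, a kinase that holds pyruvate back from the mitochondrion, rose 2.17-fold (adjusted p = 0.0037 in replicates 1 and 2). Pgm1, phosphoglucomutase, Pygl and Gbe1 of glycogen metabolism were singled out after their values were seen, with log2 changes of 0.77 for Pgm1, 0.69 for Pygl, the liver glycogen phosphorylase, and 0.57 for Gbe1, the branching enzyme (adjusted p = 0.0120, 0.0058 and 0.0131, each in replicates 1 and 2). The 6 members that were called in neither fit were Hk1, Pfkm, Pdk3, Pfkfb3, Pfkfb4 and Eno2, with log2 changes between -0.11 and 0.31. Of 41 tested genes of the respiratory chain, 0 were called in either limma fit, with a median log2 change of -0.04.

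**Figure D1:**
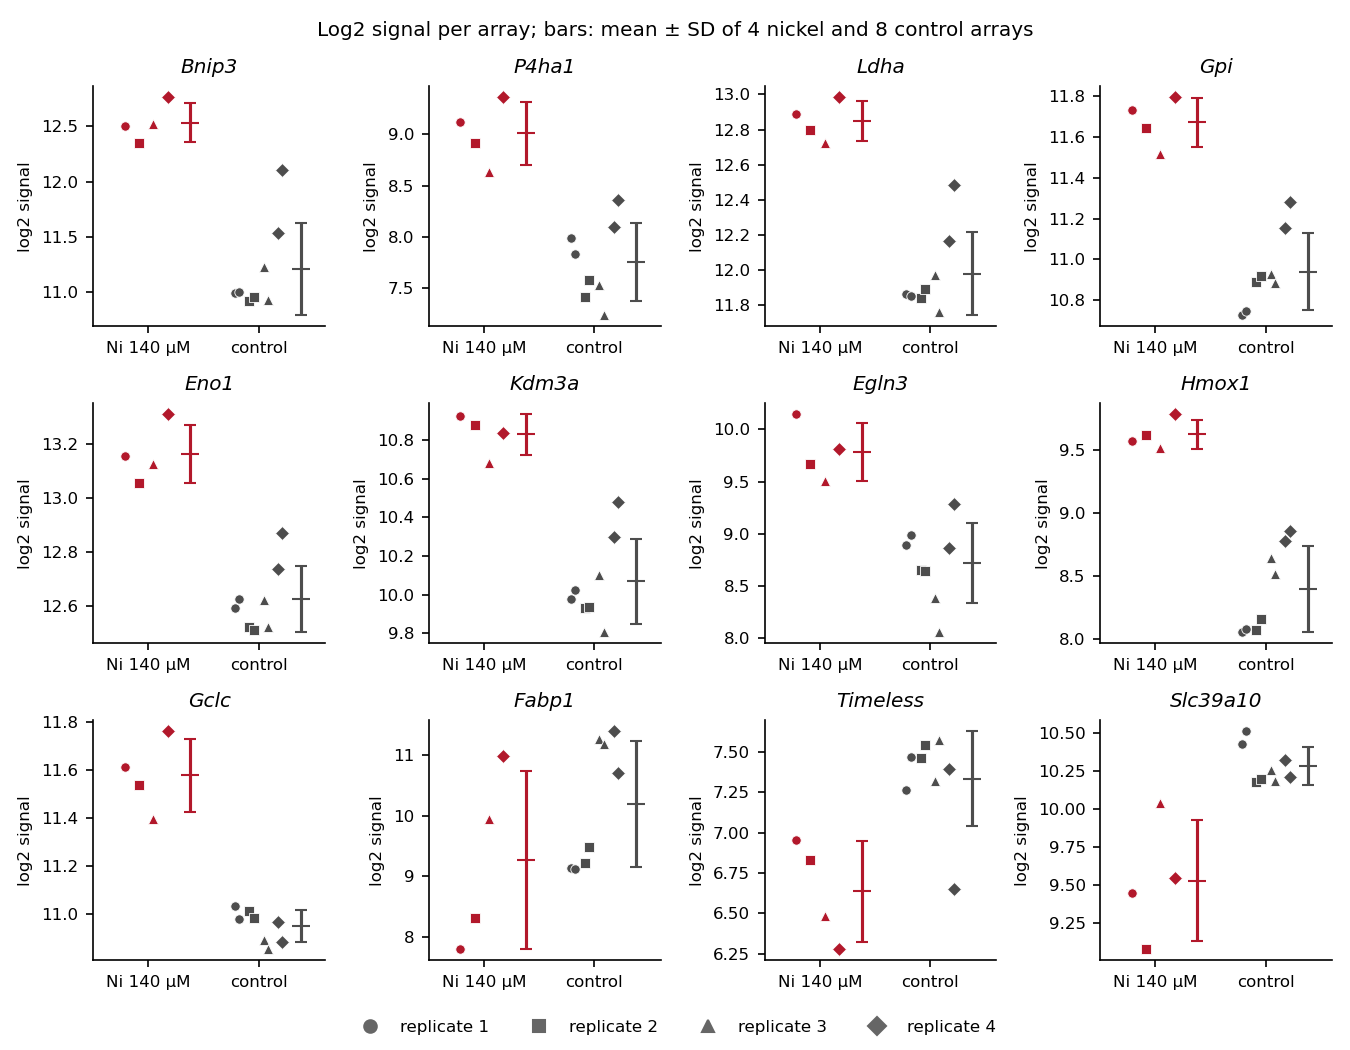
Log2 signal on each array for 12 genes, with the 4 nickel 140 µM arrays in red and the 8 control arrays in grey. Symbols mark the replicate, and bars give the mean and SD of the arrays of a group. The red points lie above all grey points in Bnip3, P4ha1, Ldha, Gpi, Eno1, Kdm3a, Egln3, Hmox1 and Gclc and below them all in Slc39a10, while the groups overlap in Fabp1 and Timeless.

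Other genes known to rise in hypoxia behaved alike. In replicates 1 and 2, 14 of 26 tested members were higher and 0 were lower. Of the 13 members outside the change table, 4 were higher over 4 replicates (Mif, Igfbp1, Ccng2 and Hilpda) and 1 was lower (Cp). The median log2 change was 0.61, and 12 of 26 members had the 4 nickel arrays above all control arrays. Bnip3, a receptor that marks mitochondria for autophagy, had the highest log2 change of all 9141 genes over 4 replicates. Its signals were 12.50, 12.35, 12.52 and 12.77 in nickel 140 µM, and 10.91 to 12.11 with a median of 10.99 in control. The groups did not overlap, and the highest control values came from replicate 4. The rise was 2.51-fold over 4 replicates and 1.46 ± 0.07 on the log2 scale in replicates 1 and 2 (adjusted p = 0.0013). Its relative Bnip3l rose by 0.85 (adjusted p = 0.0034 in replicates 1 and 2).

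Ero1a, which forms disulfide bonds in the endoplasmic reticulum, rose by 1.24 on the log2 scale (adjusted p = 0.0018 in replicates 1 and 2), with 10.95, 10.69, 10.36 and 10.55 in the nickel arrays, and 8.97 to 9.72 with a median of 9.42 in control. Ddit4, an inhibitor of mTORC1 signalling, rose by 1.00 and Ak4, a mitochondrial adenylate kinase, by 0.90 (adjusted p = 0.0018 for both in replicates 1 and 2). Ndrg1 rose by 0.97 and Vegfa, the angiogenic growth factor, by 0.64 (adjusted p = 0.0089 and 0.0129 in replicates 1 and 2). Adm, the vasoactive peptide adrenomedullin, was uneven. Its differences from control in replicates 1 to 4 were 1.30, 1.04, 0.11 and 0.53, and its arrays overlapped the controls. The rise of 1.17 in replicates 1 and 2 passed the test there (adjusted p = 0.0051). Outside the change table, Mif, a cytokine, rose by 0.65 ± 0.08 and Igfbp1, an insulin-like growth factor binding protein secreted by liver, by 0.57 ± 0.07 (adjusted p = 8.6e-04 and 0.0011 over 4 replicates). Cp, the copper-carrying ferroxidase ceruloplasmin, fell by 0.40 (adjusted p = 0.0341 over 4 replicates). In replicates 1 and 2 alone Cp had an adjusted p of 0.0543.

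Among the 15 largest rises over 4 replicates, several genes were in none of these lists. Ccdc181 rose by 1.14 ± 0.07 in replicates 1 and 2 (adjusted p = 0.0018), with 9.08, 8.89, 8.59 and 8.79 in nickel 140 µM, and 7.16 to 8.30 with a median of 7.72 in control. Apln, the peptide ligand apelin, had differences of 1.01, 1.16, 1.10 and 0.82 in replicates 1 to 4 (adjusted p = 0.0212 in replicates 1 and 2). Anxa8, a calcium-dependent membrane binding protein, had 0.94, 0.73, 0.45 and 1.61 (adjusted p = 0.0207 in replicates 1 and 2). The arrays of Apln and Anxa8 overlapped between the groups in spite of 4 positive differences.

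Promoter sequences were searched for ACGTG, the letters shared by most known HIF-1 sites, on both strands. The window was 250 bases before the annotated transcription start in RefSeq (build GRCr8). Of 24 promoters of 20 glycolysis genes, 13 held the motif (54.2%), and of 21 promoters of 20 other hypoxia genes, 12 did (57.1%). The share was 16.6% of all 33469 promoters and 22.9% of the 8563 promoters of tested genes. It was 21.2% in promoters of the dioxygenase genes, 7.41% in those of NRF2 targets and 9.52% in those of liver plasma protein genes. The related core GCGTG was found in 45.8% of glycolysis promoters, 57.1% of other hypoxia promoters and 45.5% of the promoters of tested genes. The motif ACGTG is also part of CACGTG, the E-box of other factors, which occurred in 8.33% of glycolysis promoters, 19% of other hypoxia promoters and 8.68% of the promoters of tested genes. A match is a description of the letters, since binding was not measured. The shares are over all tested members of a list, whether or not they rose. The hypoxia list was made of genes already known to rise in hypoxia. The shares thus describe the lists and are no test of the nickel response. Shown are 5 rising genes with a match, which differ in its number and place, and Tpi1, which rose with none. Capitals mark ACGTG or its reverse complement CACGT. The sequences run 5′ to 3′ on the gene's strand and end at the base before the start.
Bnip3: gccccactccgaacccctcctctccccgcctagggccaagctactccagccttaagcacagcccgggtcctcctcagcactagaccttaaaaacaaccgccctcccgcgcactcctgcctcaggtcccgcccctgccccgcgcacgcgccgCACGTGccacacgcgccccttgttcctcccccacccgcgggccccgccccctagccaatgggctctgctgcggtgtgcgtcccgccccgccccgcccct
Ddit4: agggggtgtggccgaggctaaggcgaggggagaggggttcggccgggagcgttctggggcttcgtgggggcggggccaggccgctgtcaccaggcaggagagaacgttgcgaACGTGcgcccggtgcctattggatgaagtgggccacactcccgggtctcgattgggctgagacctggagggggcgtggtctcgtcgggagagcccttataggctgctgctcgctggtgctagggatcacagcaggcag
Slc2a1: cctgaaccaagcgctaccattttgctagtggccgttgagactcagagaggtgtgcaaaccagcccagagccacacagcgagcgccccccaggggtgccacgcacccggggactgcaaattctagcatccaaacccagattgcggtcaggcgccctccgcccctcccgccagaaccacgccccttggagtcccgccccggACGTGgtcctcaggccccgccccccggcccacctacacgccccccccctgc
Ldha: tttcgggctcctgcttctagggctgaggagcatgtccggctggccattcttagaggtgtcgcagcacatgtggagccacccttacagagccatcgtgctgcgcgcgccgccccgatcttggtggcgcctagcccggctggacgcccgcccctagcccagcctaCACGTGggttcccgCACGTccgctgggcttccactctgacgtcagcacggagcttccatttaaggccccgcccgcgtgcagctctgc
Pygl: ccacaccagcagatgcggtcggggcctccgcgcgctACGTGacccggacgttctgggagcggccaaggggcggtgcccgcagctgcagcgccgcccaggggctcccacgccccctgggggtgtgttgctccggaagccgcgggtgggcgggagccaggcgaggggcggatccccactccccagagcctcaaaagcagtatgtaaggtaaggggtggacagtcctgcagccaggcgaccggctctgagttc
Tpi1: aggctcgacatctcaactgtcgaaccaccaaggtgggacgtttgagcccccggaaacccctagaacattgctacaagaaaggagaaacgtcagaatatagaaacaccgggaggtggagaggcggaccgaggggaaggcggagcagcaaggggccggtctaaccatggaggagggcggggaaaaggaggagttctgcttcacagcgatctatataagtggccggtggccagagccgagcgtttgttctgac
They are at chr1:203154963-203155212 (minus strand) for Bnip3, chr20:28437038-28437287 (minus) for Ddit4, chr5:138002272-138002521 (plus) for Slc2a1, chr1:106507842-106508091 (plus) for Ldha, chr6:94476220-94476469 (minus) for Pygl and chr4:159305089-159305338 (minus) for Tpi1. In Bnip3 and Ldha a match lies within an E-box and reads on both strands. In Ddit4, Slc2a1 and Pygl there is 1 match each.

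The oxygen sensors themselves and related dioxygenases rose in part. Of 30 tested genes of this list, 8 were higher in replicates 1 and 2 and 0 were lower. Of the 24 outside the change table, 4 were higher over 4 replicates (Plod1, Alkbh5, Kdm4b and P3h1) and 1 was lower (Hif1a). The median log2 change was 0.20. P4ha1, a prolyl hydroxylase of collagen that is also a member of the hypoxia list, had the largest rise in this list, with signals of 9.12, 8.92, 8.63 and 9.36 in nickel 140 µM, and 7.23 to 8.35 with a median of 7.71 in control. It rose 2.38-fold (adjusted p = 0.0018 in replicates 1 and 2). Egln3, a prolyl hydroxylase of HIF-1α that is itself induced by hypoxia, had 10.15, 9.67, 9.50 and 9.81 in the nickel arrays, and 8.05 to 9.28 with a median of 8.75 in control, without overlap. It rose by 1.07 (adjusted p = 0.0056 in replicates 1 and 2).

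Egln1, the main oxygen sensor of most cells, changed less. Its differences from control were 0.45, 0.50, 0.50 and -0.07 in replicates 1 to 4, and it rose by 0.47 in replicates 1 and 2 (adjusted p = 0.0275). Among histone demethylases, Kdm3a rose by 0.76 (adjusted p = 0.0034 in replicates 1 and 2) and Kdm4b by 0.57 (adjusted p = 0.0178 over 4 replicates). Jmjd6, a lysyl hydroxylase of nuclear proteins, rose by 0.73 (adjusted p = 0.0056 in replicates 1 and 2). Plod1, a lysyl hydroxylase of collagen, rose by 0.52 ± 0.07 and Alkbh5, an RNA demethylase, by 0.36 ± 0.06 (adjusted p = 0.0017 and 0.0072 over 4 replicates). The transcript of Hif1a fell by 0.25 (adjusted p = 0.0248 over 4 replicates), with an adjusted p of 0.1634 in replicates 1 and 2. HIF-1α protein was not measured on these arrays.

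**Figure D2:**
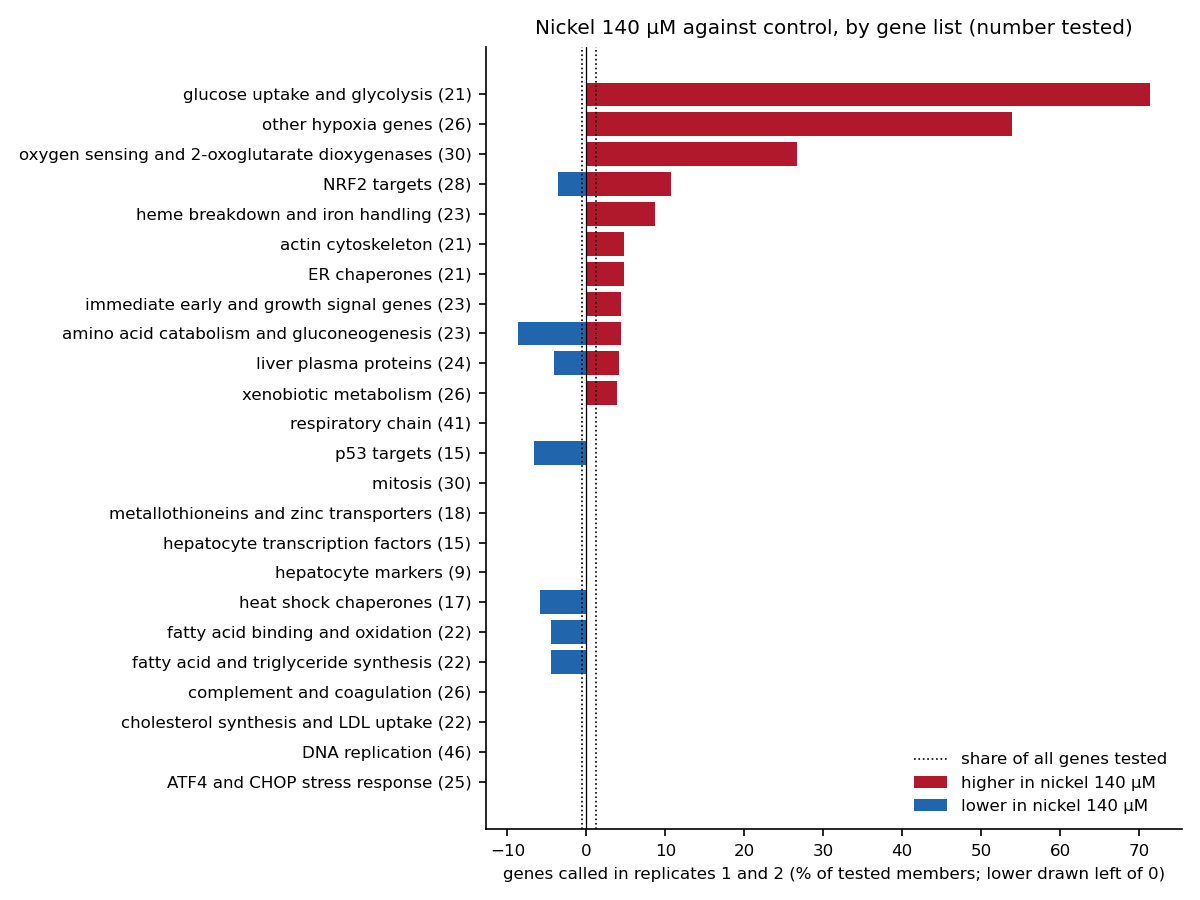
Share of the tested members of 24 gene lists that passed an adjusted p under 0.05 in replicates 1 and 2, in percent, with the number tested in brackets. Red bars are genes higher and blue bars genes lower in nickel 140 µM, and dotted lines give the shares of all genes, 1.17% and 0.547%. The glycolysis, hypoxia and dioxygenase lists stand at the top with 15 of 21, 14 of 26 and 8 of 30 members higher.

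Targets of NRF2, the factor that responds to oxidants and electrophiles, moved less evenly. Of 28 tested, 3 were higher and 1 was lower in replicates 1 and 2. Of 17 outside the change table, 3 were higher over 4 replicates (Sqstm1, Me1 and Keap1) and 1 was lower (Nfe2l2). In 8 of 28 members the 4 nickel arrays lay above all 8 control arrays, and in 1 member they lay below them all. The median log2 change was 0.20. Hmox1, the heme oxygenase that breaks down heme, had 9.57, 9.62, 9.51 and 9.78 in nickel 140 µM, and 8.05 to 8.86 with a median of 8.34 in control. The groups did not overlap. It rose 2.34-fold over 4 replicates and by 1.50 ± 0.07 on the log2 scale in replicates 1 and 2 (adjusted p = 0.0013). The difference was 0.95 in replicates 3 and 4, in which the control arrays were higher.

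The catalytic subunit of glutathione synthesis, Gclc, had 11.61, 11.54, 11.40 and 11.76 in nickel 140 µM, and 10.85 to 11.03 with a median of 10.98 in control. It rose by 0.63 (adjusted p = 0.0238 in replicates 1 and 2), and its regulatory partner Gclm by 0.40 (adjusted p = 0.0227). Sqstm1, an autophagy adaptor, rose by 0.43 ± 0.06 (adjusted p = 0.0019 over 4 replicates), with 2 of its 3 probe sets called and the other at -0.02. Txnrd1, thioredoxin reductase, had a log2 change of 0.46 that did not pass in replicates 1 and 2 (adjusted p = 0.0685). Nqo1, a quinone reductase and a common marker of NRF2 activity, had 0.21, with differences of -0.01, 0.04, 0.17 and 0.64 in replicates 1 to 4 and an adjusted p of 0.9675 in replicates 1 and 2. Nfe2l2, which encodes NRF2, was lower in all 4 replicates and fell by 0.36 (adjusted p = 0.0077 over 4 replicates).

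Few metal handling and stress genes passed the test at this concentration. Of 18 tested metallothionein and zinc transporter genes, 0 were called in replicates 1 and 2 in limma, with a median log2 change of 0.06. Mt2A, a metallothionein that binds zinc and cadmium, had 7.71, 8.11, 7.55 and 8.35 in nickel 140 µM, and 7.02 to 7.50 with a median of 7.24 in control, a difference of 0.70 that did not pass in replicates 1 and 2 (adjusted p = 0.0844). Slc39a10, a zinc importer, had 9.44, 9.07, 10.04 and 9.55 in the nickel arrays, and 10.17 to 10.51 with a median of 10.23 in control. All nickel arrays were below all control arrays, with a log2 change of -0.76 and an adjusted p of 0.0898 in replicates 1 and 2. Of 25 tested genes of the ATF4 and CHOP stress response, 0 were called in either fit. Its leading members were uneven: Atf3, a stress-induced transcription factor, had 6.49, 6.90, 6.98 and 5.53 in nickel 140 µM, and 5.10 to 6.20 with a median of 5.65 in control (adjusted p = 0.2282 in replicates 1 and 2). Ddit3, which encodes CHOP, had differences from control of 0.34, 0.87, 1.23 and 0.18 in replicates 1 to 4. Both overlapped the control arrays. Among 21 genes for chaperones and enzymes of the endoplasmic reticulum, 1 was higher, Dnajb9, with a log2 change of 0.47 (adjusted p = 0.0106 over 4 replicates). Of 17 heat shock chaperones, 0 were higher and 1 was lower in replicates 1 and 2.

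Fewer genes fell, and few of them were members of the liver lists. Of 24 liver plasma protein genes, 1 was higher and 1 was lower in replicates 1 and 2. Itih4, a plasma protein of the inter-alpha inhibitor family, had differences of -0.89, -1.11, -1.60 and 1.14 in replicates 1 to 4, lower in 3 and higher in replicate 4 (adjusted p = 0.0054 in replicates 1 and 2). Of 22 genes of fatty acid binding and oxidation, 1 was lower, and of 23 genes of amino acid catabolism and gluconeogenesis, 1 was higher and 2 were lower. Fabp1, the liver fatty acid binding protein, had 7.80, 8.31, 9.94 and 10.99 in nickel 140 µM, and 9.13 to 11.40 with a median of 10.09 in control. The groups overlapped, and replicates 3 and 4 were higher than replicates 1 and 2 in both. Within replicates the differences were -1.33, -1.04, -1.28 and -0.06, and the fall in replicates 1 and 2 passed the test there (adjusted p = 0.0056). Hao1, a peroxisomal glycolate oxidase of liver, was lower within each replicate, with differences of -1.11, -0.75, -0.70 and -0.45 (adjusted p = 0.0148 in replicates 1 and 2).

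The largest falls called over 4 replicates outside the change table were those of the transcription factor gene Sp2 at -0.74 ± 0.14 and of Timeless, a component of the replication fork, at -0.70 ± 0.13 (adjusted p = 0.0122 and 0.0138). Timeless had 6.95, 6.83, 6.48 and 6.28 in the nickel arrays, and 6.65 to 7.58 with a median of 7.43 in control, with 1 control array of replicate 4 among the nickel values. Tm4sf20, a membrane protein of the tetraspanin-like L6 family, had differences of -1.10, -0.92, -0.14 and -0.96 (adjusted p = 0.0161 in replicates 1 and 2). Id2, an inhibitor of helix-loop-helix factors, was at -0.71 over 4 replicates with an adjusted p of 0.1311 in replicates 1 and 2, and its other probe set was at -0.34. Pdzk1, a scaffold of membrane transporters, fell by 0.65 (adjusted p = 8.9e-04 over 4 replicates). Of 46 tested DNA replication genes, 0 were called in replicates 1 and 2. Of the 22 outside the change table, 3 were lower over 4 replicates (Dut, Rpa1 and Prim2) and 0 were higher. The median log2 change of the list was -0.20. Tyms, thymidylate synthase, had differences of -0.58, -0.58, -0.52 and -0.61 in replicates 1 to 4 and an adjusted p of 0.0527 in replicates 1 and 2. Dut, which clears dUTP, fell by 0.37 (adjusted p = 0.0245 over 4 replicates), but its other probe set was at 0.01. Col3a1, a collagen gene of fibroblasts, was 1 of 2 tested stellate cell markers and was lower in replicates 1 and 2 (log2 change -0.75, adjusted p = 0.0153), with nickel arrays at 6.15, 6.57, 5.19 and 4.80, and 5.23 to 7.27 with a median of 6.31 in control.

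Of 20 genes outside the change table that were followed through the left-out replicates and passed over 4 replicates, 7 passed with any single replicate left out (Gpi, Eno1, Mif, Igfbp1, Plod1, Sqstm1 and Pdzk1). Leaving out replicate 1, 2, 3 or 4 ended 12, 13, 10 or 4 of these calls. The calls of Hif1a, Dut and Rpa1 were lost with any single replicate left out. Dropping the replicate block ended 9 of the 20.

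Nickel 140 µM stood between a concentration with no calls and one with many. At 40 µM, 0 probe sets were called over 4 replicates in limma and 618 had an unadjusted p under 0.05. At 400 µM, 3680 were higher and 2622 were lower than control. Of the 387 probe sets called higher at 140 µM, 213 were higher again and 7 were lower at 400 µM than at 140 µM in replicates 1 and 2. Of the 117 called lower, 55 were lower again and 6 were higher. In the direct comparison of nickel 400 µM with nickel 140 µM over replicates 1 and 2, 18.1% of genes were higher and 22% were lower. In the glycolysis list 12 of 21 were higher and 2 were lower, and in the other hypoxia list 14 of 26 were higher and 1 was lower.

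Part of the hypoxia genes were near their 400 µM level already at 140 µM. Bnip3 had log2 changes of -0.08, 1.33 and 1.41 at 40, 140 and 400 µM, and nickel 400 µM differed from nickel 140 µM by 0.03 in replicates 1 and 2 (adjusted p = 0.7975). Ldha had -0.11, 0.87 and 0.95, with a difference between the 2 higher concentrations of 0.09 (adjusted p = 0.3371). The differences were 0.12 for Tpi1 and -0.05 for Gpi (adjusted p = 0.2101 and 0.6707). A p above the threshold with 2 replicates does not show that these levels were equal. In replicates 1 and 2, Aldoc was lower at 400 µM than at 140 µM, with a difference of -0.93 (adjusted p = 0.0016). Over 4 replicates the gap was smaller, with log2 changes of -0.06, 0.88 and 0.47 at 40, 140 and 400 µM.

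Other members went on rising. Slc2a1 had -0.14, 1.08 and 1.91 at 40, 140 and 400 µM and was higher at 400 µM by 1.06 in replicates 1 and 2 (adjusted p = 3.9e-04). Ero1a was higher by 1.06, and P4ha1 by 0.78 (adjusted p = 4.4e-04 and 0.0011). Hmox1 had 0.29, 1.23 and 2.78 and was higher at 400 µM by 1.69 (adjusted p = 8.9e-05). Mt2A changed mainly at the top concentration, with 0.53, 0.70 and 3.76 and a difference of 3.42 (adjusted p = 1.5e-04). Slc39a10 was at -2.89 at 400 µM, against -0.76 at 140 µM, with a difference of -2.24 in replicates 1 and 2 (adjusted p = 0.0010). Liver genes moved with the top concentration too. In replicates 1 and 2, 20 of 24 plasma protein genes and 21 of 22 fatty acid genes were lower at 400 µM than at 140 µM. The median differences there were -1.12 and -0.59. Over 4 replicates both list medians against control were also lower at 400 µM than at 140 µM, but the gaps between them were smaller.

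**Figure D3:**
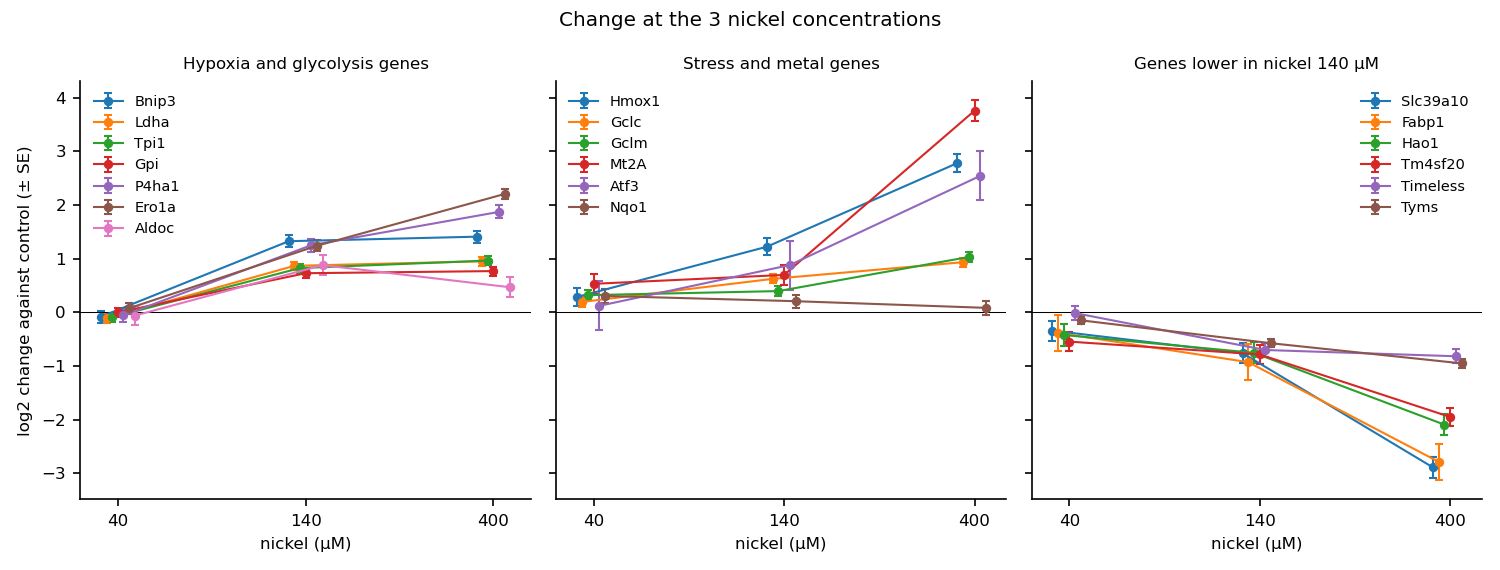
Log2 change against control at nickel 40, 140 and 400 µM over 4 replicates, with the SE of the fit, for 7 hypoxia and glycolysis genes, 6 stress and metal genes and 6 genes lower at 140 µM. Bnip3, Ldha, Tpi1 and Gpi differ by at most 0.14 between 140 and 400 µM, while Hmox1, Mt2A, Slc39a10 and Fabp1 move far more at 400 µM.

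Nickel 140 µM was also set against the intermediate concentrations of the other metals. Molar concentrations differ, so these are comparisons of exposures and not of equal doses. The study set the intermediate concentration of each metal at the same level of partial cell death in viability assays. It holds that equal potency was approximated, which was not tested here. Against chromium 1 µM in replicates 1 and 2, nickel 140 µM was higher in 1.65% of genes and lower in 2.48%. In the glycolysis list 17 of 21 genes were higher and 0 were lower, with a median difference of 0.78, and in the other hypoxia list 19 of 26 were higher and 0 were lower. Bnip3 was higher by 1.53 and Ldha by 1.11 (adjusted p = 7.7e-06 and 1.5e-05). Of 28 NRF2 targets, 3 were higher and 2 were lower in nickel 140 µM, with a median difference of 0.02. Hmox1 was higher by 1.09 (adjusted p = 4.5e-05), while the differences were 0.12 for Txnrd1 and -0.32 for Nqo1 (adjusted p = 0.3728 and 0.0692). DNA replication genes separated these exposures: 22 of 46 were lower in nickel 140 µM than in chromium 1 µM and 0 were higher, with a median difference of -0.35. Tyms was lower by 0.70 and Pcna, the sliding clamp of DNA polymerases, by 0.50 (adjusted p = 0.0033 and 0.0058). The median log2 change of this list against control was -0.20 in nickel 140 µM and 0.20 in chromium 1 µM over 4 replicates.

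Against cadmium 0.55 µM over 4 replicates, nickel 140 µM was higher in 3.57% of genes and lower in 8.46%. In the glycolysis list 15 of 21 were higher and 0 were lower, with a median difference of 0.71, and in the other hypoxia list 19 of 26 were higher and 1 was lower. These counts and those that follow on the NRF2 and mitosis lists hold members of the change table and are a description. Outside it, Gpi was higher by 0.89, Mif by 0.69 and Plod1 by 0.43 (adjusted p = 3.0e-10, 8.1e-08 and 3.2e-05). Sqstm1 differed by 0.18 (adjusted p = 0.0262). Of 28 NRF2 targets, 4 were higher and 6 were lower in nickel 140 µM than in cadmium 0.55 µM, with a median difference of -0.04. Mt2A had a log2 change against control of 0.70 in nickel 140 µM and 1.56 in cadmium 0.55 µM. Of 30 mitosis genes, 7 were higher in nickel 140 µM than in cadmium 0.55 µM and 0 were lower. The median log2 change of this list against control was -0.02 in nickel 140 µM, where 0 were called in either limma fit, and -0.27 in cadmium 0.55 µM. The arrays of the cadmium exposures were assigned by the same order of titles, in replicate 2 as well.

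**Figure D4:**
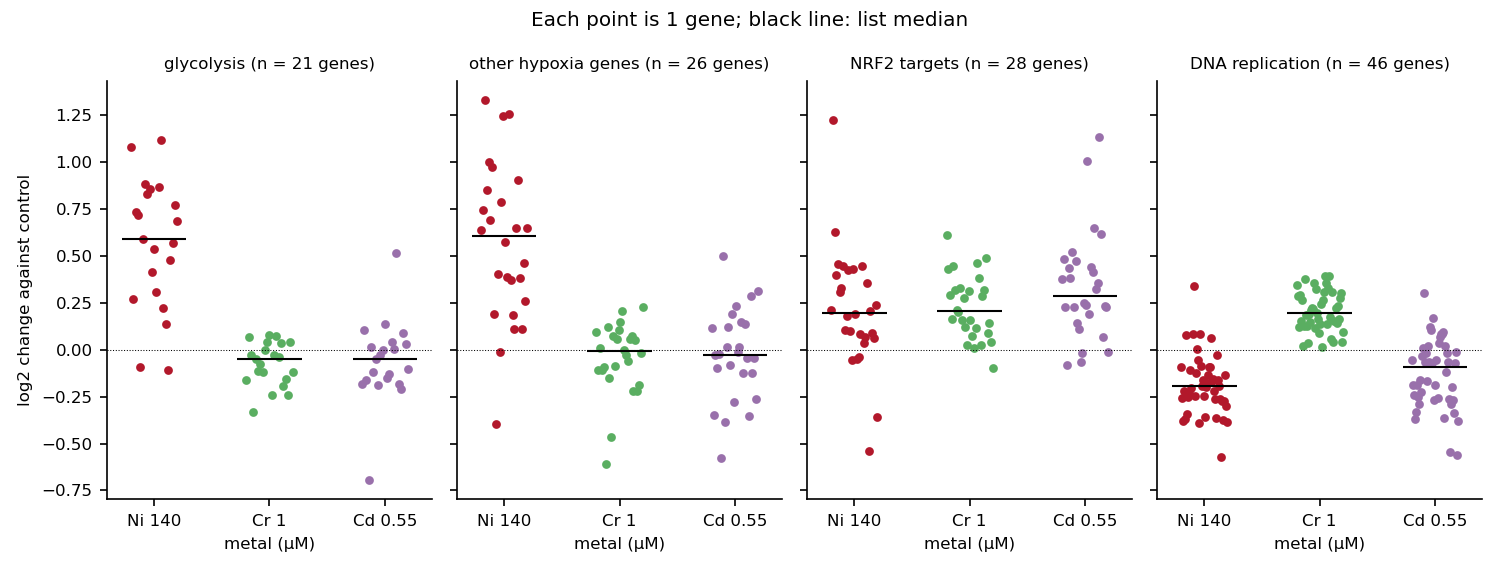
Log2 change against control for each gene of 4 lists in nickel 140 µM, chromium 1 µM and cadmium 0.55 µM, over 4 replicates that share the same control arrays. Black lines are list medians, 0.59, -0.05 and -0.05 for glycolysis, 0.61, -0.01 and -0.03 for other hypoxia genes, 0.20, 0.21 and 0.29 for NRF2 targets, and -0.20, 0.20 and -0.09 for DNA replication.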

How the data were processed

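Cells of the rat hepatoma line H4-II-E-C3 were profiled on Affymetrix rat arrays, 44 in all. The deposited table holds log2 values that the authors made by RMA (background correction, quantile normalization and probe summary) in Partek software, with no version given in the sources used here. The methods filtered on detection calls, which are not used here, and as many probe sets as that filter kept, those with the highest mean over 44 arrays, were tested instead. Arrays were assigned to conditions by the order of titles described in the report. Columns without a sample numbered 0. Of 31099 probe sets, 57 were array controls, 20826 named 1 gene, 436 named several and 9780 named none. Gene symbols were updated through the RefSeq table, where 20758 gene IDs were found, with 0 changes.

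Differences were fitted with limma 3.58.1 in R 4.3.3 on control and nickel 40, 140 and 400 µM, after averaging the 2 control arrays of a replicate, and p-values were adjusted by Benjamini-Hochberg over all probe sets tested. The replicate number was a block. Same-numbered nickel and control arrays deviated together (r = 0.721, 0.524, 0.538 and 0.538), each best with its own number. Replicates 1 and 2 also went together across numbers (r = 0.510 and 0.424), and replicates 3 and 4 less evenly (0.463 and 0.143). Pairs between these sets had negative r. The fit to replicates 1 and 2 alone has 3 residual degrees of freedom. Its p-values do not cover the spread between these sets. Differences from chromium in replicates 1 and 2 came from a fit on control and the nickel and chromium conditions. Differences from cadmium, and values for chromium over 4 replicates, came from a fit over 10 conditions. The members and gene lists were chosen with earlier results of these data known. Genes are represented by the probe set with the highest mean over 44 arrays. Named genes were the 15 largest rises and 15 largest falls called over 4 replicates with all 4 nickel arrays on one side of their own controls, up to 5 members of each list by the moderated statistic, and genes the study names for nickel; not all of these are described. Outside this rule, Gpi, Pfkl, Aldoa, Aldoc, Pgam1, Gbe1, Pgm1, Pygl, Ak4, Vegfa, Mif, Egln1, Kdm4b, Alkbh5, Hif1a, Txnrd1, Nqo1 and Itih4 were chosen after their values were seen. The fits were tested on simulated data. Alternatives were no block, separate control arrays, other filters, other samples in the fit, no moderation, each replicate left out and the conditions as labelled. The number of arrays limits the precision.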

Additional observations from a re-analysis of the deposited data

Results flagged for a closer look

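For 64 genes, the difference in each replicate was set against the other 3, and the median squared correlation of each array with its group was set against the others in both groups. Of these 66 sets of values, 7 held one far from the others by Dixon's criterion. Chance gives about 1 such set in 20. Of the 6 genes, 4 had a difference between nickel 140 µM and control in replicate 4 that was smaller than in the other replicates. It was 0.08 for Aldoa (0.74 to 0.79 in the others), 0.95 for Bnip3 (1.41 to 1.51), 0.36 for Ak4 (1.01 to 1.14) and -0.07 for Egln1 (0.45 to 0.50). For Sqstm1 the difference in replicate 2 was 0.33, against 0.46 to 0.47 in the others. For Dut it was -0.60 in replicate 3, against -0.32 to -0.28 in the others. The nickel 140 µM array of replicate 4, a repeated array, had a median squared correlation of 0.9509 with the other nickel 140 µM arrays. In Aldoa, Ak4 and Egln1 this array had the lowest signal of the 4 nickel 140 µM arrays, and in Bnip3 the highest. In Aldoa, Bnip3 and Ak4 both control arrays of replicate 4 lay above all control arrays of the other replicates. In Egln1, 1 of them did. The parts of the nickel and the control arrays in the smaller differences of replicate 4 were not tested.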

How the results depend on the processing

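The count of probe sets called in nickel 140 µM against control, 504, was 96 with no replicate block, 1600 with the 8 control arrays as separate samples and 1027 with only control and nickel 140 µM in the fit. It was 234 in replicates 1 and 2 alone, 34 in replicates 3 and 4 alone, 0 with conditions as labelled (1461 at an unadjusted p under 0.05 in limma) and 74 to 220 with 1 replicate left out. It lay between 366 and 537 under the other alternatives. The count at the stricter thresholds, 18, was 3 with no replicate block, 7 with only the Control 2 arrays, 0 with no moderation, 0 with conditions as labelled, 0 in replicates 1 and 2 alone, 0 in replicates 3 and 4 alone, 0 without replicate 1, 2 or 3 and 21 without replicate 4. Against chromium 1 µM, 667 probe sets were called, 202 with no replicate block, 0 with conditions as labelled and 244 to 465 with 1 replicate left out. Against cadmium 0.55 µM, 1605 were called, 544 with no replicate block, 0 with conditions as labelled and 698 to 2027 with 1 replicate left out. For nickel 400 µM against nickel 140 µM, 3365 were called, 842 with no replicate block, 0 with conditions as labelled and 493 to 4009 with 1 replicate left out. The causes of these moves were not tested. Of 64 genes, 59 were among the 12000 probe sets of the stricter filter and 63 passed the filter on the lowest array. Called values changed direction in 0 genes under the alternatives that held them. Of the 20 genes outside the change table with a call, it was lost in 9 with no replicate block, in 12, 13, 10 and 4 without replicates 1, 2, 3 and 4, in 18 in replicates 3 and 4 alone, in 6 in replicates 1 and 2 alone, in 4 with only the Control 2 arrays, in 4 with no moderation and in 2 with no filter. With conditions as labelled, all 20 calls were lost and 12 values of genes in the table moved by more than the spread between replicates.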
